A study of Equus caballus with 2 samples.

Results

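Shore-like tiles were taken here from the density of listed CpGs alone. The genome was cut into tiles of 1 kb, and the CpGs listed in either library were counted per tile. A tile with over 20 listed CpGs was called dense, and the CpGs described below lie in tiles with 10 or fewer listed CpGs whose tile is 1 or 2 tiles away from a dense tile of the same chromosome, with 10 or more reads in both libraries. This gave 32092 CpGs in 6963 tiles, or 3.66% of the 877053 CpGs with that coverage. Methylation played no part in the choice. Of these, 33 lay among the 0.1% of CpGs with the most coverage and were set aside, which left 32059 CpGs in 6958 tiles. Listing depends on where the enzyme cuts and on reads as well as on sequence, so a tile with few listed CpGs need not be poor in CpGs, and "shore-like" is used in that sense.

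CpG islands are stretches of DNA rich in CpG dinucleotides that mostly escape methylation, and they often lie at the starts of genes. The first kilobases beside an island are called its shores; there methylation climbs from the low level of the island to the high level usual for the rest of the genome, and shores are known to differ between tissues and between tumours and their tissue of origin. In a cancer, shore methylation can move in either direction, and methylation of CpG-poor DNA is often lost.

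The libraries were 1 equine sarcoid and 1 sample of skin away from the tumour, both from horse 1 and both from whole tissue. Sarcoid is a tumour of skin fibroblasts in horses. The assay was RRBS, short for reduced representation bisulfite sequencing, in which DNA is cut at CCGG sites and a cytosine that survives bisulfite counts as methylated. Neither library was replicated, so a difference compares these libraries, not tumours with skin, and a different mixture of cells in the tissues cannot be told apart from a change within cells.

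The median coverage of shore-like CpGs was 41 reads in skin (5th to 95th percentile 13 to 101) and 31 in sarcoid (11 to 78), and the medians over all tested CpGs were also 41 and 31. CpGs of sparse tiles over 10 tiles away had medians of 35 and 28, and those of dense tiles 51 and 35. A tile held a median of 4 tested CpGs, and 713 tiles held only 1. The CpGs belonged to 5042 of the 10183 dense tiles as their nearest, and 1688 had dense tiles within 2 tiles on both sides. A single read of 75 bases often covers several CpGs, and reads carry no molecular identifiers, so counting intervals below are too narrow and cover counting of reads only.

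In skin, shore-like CpGs were less methylated than CpGs in equally sparse tiles far from dense ones, and the level was higher with distance. The mean over shore-like CpGs was 41.4% in skin. CpGs in tiles over 10 tiles away, weighted to the same number of listed CpGs per tile, had a mean of 59.1%, a gap of -17.7 points, and the gap was below 0 on 31 of 31 chromosomes (from -33.0 to -5.52 points). In tiles directly beside a dense tile the mean was 35.4% over 20565 CpGs, and in tiles 2 away it was 52.0% over 11494. At equal density the step between them was 16.3 points, and the tile 2 away had the higher mean on 31 of 31 chromosomes (4.72 to 41.4 points). Tiles 3 to 5 away reached 57.5% at equal density, 6 to 10 away 58.5%, and over 50 away 59.0%. Most of the climb was therefore over within the first 2 tiles. Each value is from a single library and has no test.

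Over all shore-like CpGs together, the climb was steepest close to the dense tile. The 6495 CpGs within 100 bases of the dense tile's edge had a mean of 25.1% in skin and 23.9% in sarcoid. At 101 to 250 bases the means were 31.2% and 29.2%, at 251 to 500 bases 40.1% and 39.1%, and at 751 to 1000 bases 46.0% and 44.0%. From 1251 bases on, skin lay between 53.4% and 54.9% and sarcoid between 51.1% and 52.4%. Sarcoid was lower than skin in each of these 9 bins of distance, with differences from -2.53 to -0.992 points. A tile border can run through an island, and 20.3% of the shore-like CpGs lay within 100 bases of the dense tile. Without the CpGs within 75 bases, the length of a read, the step between the first and the second tile was 12.1 points.

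Single CpGs were mostly near one end of the scale rather than near the mean. In skin, 42.0% of shore-like CpGs had a level of at most 20%, 32.6% lay between 20% and 80%, and 25.4% were at 80% or above. In sarcoid these shares were 44.5%, 30.5% and 24.99%. Directly beside a dense tile 50.3% of CpGs were at most 20% methylated in skin, against 27.0% in tiles 2 away and 17.8% over 10 tiles away. CpGs without a single methylated read made up 23.7% of shore-like CpGs in skin and 26.7% in sarcoid. The standard deviation over CpGs was 37.2 points in skin, while between the libraries the same CpG differed with a standard deviation of 16.2 points.

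Shore-like levels differed by the level of the dense tile alongside. Of the dense tiles nearest to a shore-like CpG, 2944 had a mean of at most 20% in skin, 1369 lay between 20% and 80%, and 709 were above 80%. Their own means in skin were 2.63%, 57.3% and 86.4%. Beside dense tiles of low methylation, shore-like CpGs had 16.2% in the first tile and 42.6% in the second. Beside those of intermediate methylation the levels were 59.2% and 58.3%, which were close to each other. Beside highly methylated dense tiles the order was inverted, at 73.5% in the first tile and 66.8% in the second. The island-and-shore shape thus held for the first of the 3 classes, which had 17871 of the CpGs.

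In bases, the low class began at 7.33% in skin within 100 bases of the dense tile, reached 20.7% at 251 to 500 bases and 48.0% at 1751 to 2000 bases, which was still below the 59.1% of far tiles. In sarcoid the same bins had 7.25%, 20.04% and 47.0%. The highly methylated class went from 79.0% to 66.4% in skin and from 75.9% to 61.5% in sarcoid over the same range. These classes thus drew closer to the far level with distance. The intermediate class stayed level, with 58.5% at 1 to 100 bases and 58.0% at 1751 to 2000 bases in skin, and 54.5% and 54.6% in sarcoid.

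**Figure D1:**
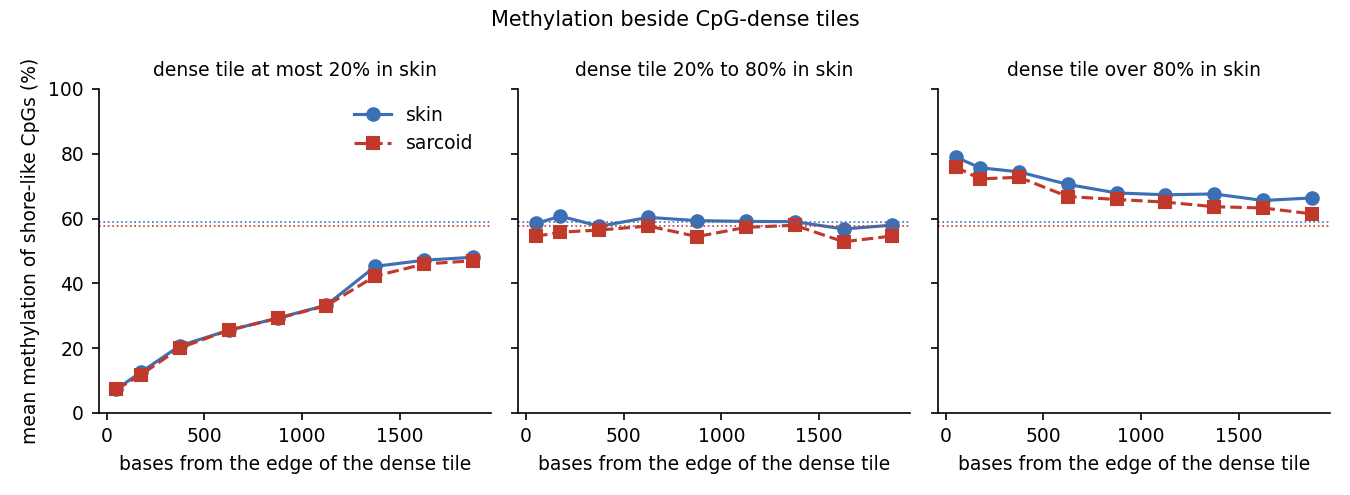
Mean methylation of shore-like CpGs (vertical axis, percent) against bases from the edge of the nearest dense tile (horizontal axis), with skin as circles, sarcoid as squares and 1 panel for each class of dense tile by its level in skin. Dotted lines mark CpGs over 10 tiles away at equal density. In the left panel skin goes from 7.33% to 48.0%, and in the right panel from 79.0% to 66.4%.

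Both tiles on the same side of a dense tile could be compared at 500 places. Where the dense tile was at most 20% methylated (211 places), the tile 2 away was the more methylated of the pair at 152 places in skin and 150 in sarcoid, and by over 30 points at 72 and 68 places. Of these, 59 places had such a step in both libraries. At 69 of the 211 places both tiles were still at most 20% methylated in skin. The mean step was 20.1 points in skin and 19.5 in sarcoid, and it was steeper in sarcoid at 103 places (48.8%). Beside dense tiles of 20% to 80% (193 places) the mean step was -2.46 points in skin and -1.62 in sarcoid, and beside those over 80% (96 places) it was -7.98 and -10.99.

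Levels also differed by other features of the tiles. Beside dense tiles with over 40 listed CpGs the first tile had 24.9% in skin, against 37.1% beside those with 21 to 40, and the second tile 47.0% against 52.7%. First tiles beside a lone dense tile had 35.1%, beside a run of 2 dense tiles 38.7% and beside runs of 3 or more 36.5%. For tiles 2 away, the level was 55.0% where nothing was listed in the tile between, 51.9% where 1 to 10 CpGs were listed there and 46.3% with 11 to 20. Tiles at lower and at higher coordinates than their dense tile had 41.1% and 41.6%. By their own density, shore-like tiles ranged from 45.1% with 5 or 6 listed CpGs to 36.3% with 9 or 10.

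Values just inside and outside the limits of the choice were close for density and further apart for distance. Tiles with 10 listed CpGs had a mean of 35.5% in skin and those with 11 had 37.5%. Tiles 2 away had 52.0% and tiles 3 away 56.8%. CpGs whose nearest dense tile listed 21 CpGs had 47.5%, and CpGs beside a tile listing 20 had 48.1%.

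Shore-like CpGs had a slightly lower mean in sarcoid than in skin. The mean was 39.7% in sarcoid, a difference of -1.67 points from skin (95% counting interval -1.76 to -1.57), and it was below 0 on 29 of 31 chromosomes with a standard deviation of 0.936 points between them. Of single CpGs 42.8% were lower, 36.1% higher and 21.1% equal. Far CpGs at equal density differed by -1.38 points, so the gap between shore-like and far CpGs was -0.283 points. This gap changed sign between chromosomes, below 0 on 13 and above 0 on 18, with a standard deviation of 0.993 points. The gap to far tiles was thus smaller than the spread between chromosomes.

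By distance, the difference was -1.46 points in the first tile (interval -1.57 to -1.35), lower on 28 of 31 chromosomes, and -2.03 in the second (-2.20 to -1.85), lower on 24. It went on to -2.53 points at 3 to 5 tiles, lower on 31 of 31 chromosomes, and was -2.03 at 6 to 10, -1.89 at 11 to 50 and -1.31 at over 50 tiles. The most negative mean was thus just outside the shore-like tiles, at 3 to 5 tiles. At equal density that mean was -2.49 points, a gap of -0.820 points to shore-like tiles. Single chromosomes spread widely in the second tile (standard deviation 1.91 points), and on 7 of them sarcoid was not lower there. In skin, 50.35% of CpGs in the first tile, 27.0% in the second and 19.9% at 3 to 5 tiles were at most 20% methylated. Beyond 50 tiles this share was 17.7%. Such CpGs have little room to be lower, and distances were not compared at like level.

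**Figure D2:**
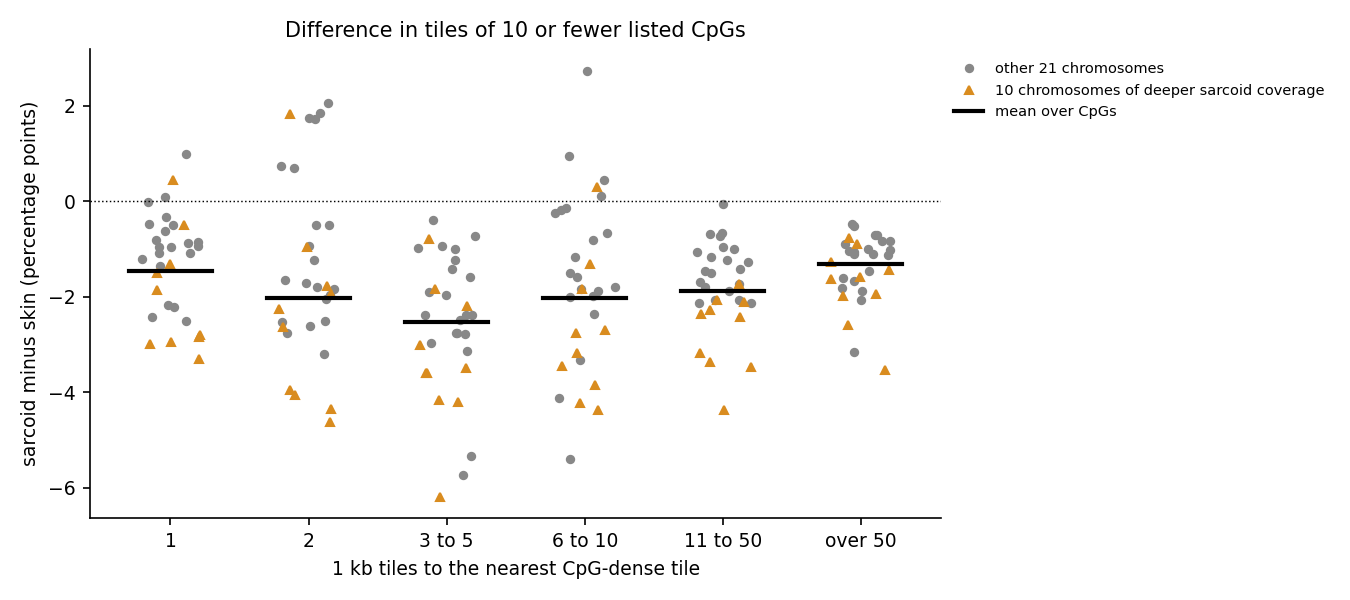
Sarcoid minus skin methylation (vertical axis, percentage points) in tiles of 10 or fewer listed CpGs against the number of 1 kb tiles to the nearest dense tile. Points are chromosomes (triangles the 10 of relatively deeper sarcoid coverage, circles the other 21), bars the mean over CpGs, which goes from -1.46 in the first tile to -2.53 at 3 to 5 tiles and -1.31 beyond 50.

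Chromosomes 5, 6, 7, 12, 18, 21, 22, 25, 28 and 29 were taken as the set of relatively deeper sarcoid coverage. These 10 held 38.2% of the shore-like CpGs and 30.8% of the far ones. At shore-like CpGs, the median log2 ratio of sarcoid to skin reads did not split the chromosomes cleanly. It was -0.274 on chromosome 27 and -0.401 on 19, both outside the set, and -0.450 on 6 and -0.451 on 29. The mean difference of shore-like CpGs was larger over the 10 together, at -2.41 points, than over the other 21, at -1.20. On chromosome 5, in the set, it was only -0.538. For far CpGs the values of the 10 and of the other 21 were -2.15 and -1.26. On the other 21 the gap between shore-like and far CpGs at equal density was -0.0770 points, and when far CpGs were weighted by chromosome as well it was -0.156. By distance, the other 21 had -1.03 points in the first tile, -1.53 in the second, -2.15 at 3 to 5 and -1.14 beyond 50. The most negative value was again at 3 to 5 tiles, while the first tile and the tiles beyond 50 changed places against the order over all chromosomes. Among chromosomes with the largest differences of shore-like CpGs were 28 (-3.66 points) and 7 (-3.25), and the mean was above 0 on chromosomes 30 (0.245) and 31 (0.0424). Chromosome 7 also had the highest level in shore-like tiles, at 53.2% in skin, and the smallest gap to its far tiles.

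The difference depended on the dense tile alongside. Beside dense tiles of at most 20% methylation, shore-like CpGs differed by -0.610 points (interval -0.718 to -0.501), with -0.301 in the first tile and -1.28 in the second. Beside dense tiles of 20% to 80% they differed by -3.06 points (-3.26 to -2.85), and beside those over 80% by -2.95 (-3.23 to -2.67). Sarcoid was lower on 21, 27 and 27 chromosomes in these classes. Of the CpGs in these classes 33.6%, 45.2% and 41.9% lay on chromosomes of deeper sarcoid coverage. Without those chromosomes the differences were -0.351, -2.70 and -2.13 points, in the same order of the first class against the others. No test between the classes was possible with 1 library per tissue.

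Shore-like CpGs beside low dense tiles had a lower level to begin with, 24.5% in skin. To compare CpGs within classes of level, reads were split at random. One part classed a CpG by its level in skin and the other gave the difference. A minimum of 20 reads was set for this, so shallower CpGs are left out. The CpGs classed by skin and those classed by sarcoid are not the same set. Among CpGs over 80% methylated in skin, the difference was -3.43 points beside low dense tiles, -4.94 beside intermediate and -3.46 beside highly methylated ones. Among CpGs between 20% and 80% it was -1.14, -1.94 and -2.98 points. CpGs at or below 20% differed by 0.246, 1.00 and 0.486 points. Classed by their level in sarcoid, CpGs between 20% and 80% differed by -1.36, -5.94 and -7.66 points. Dense tiles were classed by skin each time and never by sarcoid, so the swap does not check their class. In that middle range the difference was closest to 0 beside tiles that were low in skin, whichever library classed the CpG. That order did not extend to CpGs over 80% methylated in sarcoid, which differed by 6.17, 4.53 and 2.63 points. The range of 20% to 80% is wide, and level within it was not matched between the classes of dense tile. Over all shore-like CpGs classed by skin, the difference went from 2.21 points at 20% to 40% to -5.53 at 60% to 80%. Classed by sarcoid it went from -9.34 to 1.10. The order in the middle range is thus not one at equal level.

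Compared with far tiles at like level, shore-like CpGs at 40% to 60% in skin differed by -2.24 points and far ones by -0.179, and at 60% to 80% by -5.53 and -4.03. With the class taken from sarcoid the same classes gave -4.995 and -5.35 points, and 1.10 and 0.257. At 20% to 40% shore-like and far CpGs differed by 2.21 and 2.70 points classed by skin, and by -9.34 and -9.12 classed by sarcoid. Shore-like CpGs had the lower value there both times. In the other classes the order of shore-like and far CpGs turned with the library that gave the class. No order that holds over all levels can thus be given.

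Each CpG's methylated and unmethylated reads in skin and sarcoid entered a two-sided Fisher's exact test. A CpG was called where it differed by 25 points or more and had q below 0.01, adjusted by Benjamini and Hochberg over the 875729 CpGs tested genome-wide. Of the shore-like CpGs 1022 (3.19%) were called, where 2.84% were called over all tested CpGs. Of these 647 (2.02%) were lower and 375 (1.17%) higher in sarcoid, against 1.89% and 0.954% over the genome. Far CpGs of sparse tiles had 2.26% and 1.07%. The share of calls in shore-like tiles was thus near the background in both directions. In the first tile 1.71% were called lower and 1.01% higher, and in the second 2.57% and 1.46%. On the chromosomes of deeper sarcoid coverage 4.27% of shore-like CpGs were called, and on the others 2.52%. With those 10 chromosomes left out and q adjusted anew, 453 of 19821 were called, 261 lower and 192 higher, where 2.04% of all tested CpGs were called.

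Beside dense tiles of low methylation, calls were about as often higher as lower, with 203 lower (1.14%) and 188 higher (1.05%) among 17871 CpGs. Beside intermediate dense tiles 300 of 9400 were lower (3.19%) and 148 higher (1.57%). Beside highly methylated ones 144 of 4685 were lower (3.07%) and 39 higher (0.832%). In the first tile beside low dense tiles 109 CpGs were higher and 96 lower. The share called there was 0.784% lower and 0.890% higher, both below the genome's 1.89% and 0.954%. Beside low, intermediate and highly methylated dense tiles, 64.2%, 16.1% and 8.69% of CpGs were at most 20% methylated in skin. In the first tile beside low dense tiles this share was 75.7%. Such CpGs have no room to be called lower. CpGs at 80% or above have no room to be called higher, and they made up 12.7%, 35.2% and 54.3%. Calls were not compared at like level, so these counts do not set the classes apart in direction.

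Tiles of 1 kb with at least 3 tested CpGs were tested in the same way on summed reads, 103489 in all. Of 5346 shore-like tiles 341 (6.38%) were called, where 6.39% were called over all tiles. They were 228 lower (4.26%, against 4.11% of all tiles) and 113 higher (2.11%, against 2.28%). Dense tiles were called at 2.50% and far sparse tiles at 7.24%. Read sums count a read once for each CpG it covers, which makes the p-values of tiles too small. With reads divided by the CpGs they cover, 167 shore-like tiles (3.12%) were called, 112 lower and 55 higher, where 3.49% of all tiles were. Of the 341 tiles, 308 also had a mean over CpGs at least 25 points apart the same way, 265 had every CpG in the called direction, and 231 held a CpG called singly that way. The chromosomes of deeper sarcoid coverage held 152 of the 341 and 37.7% of the shore-like tiles tested. Without them, and with q adjusted anew, 189 of 3332 (5.67%) were called, where 5.78% of all tiles were.

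Most shore-like tiles stayed in their class, by the mean over their tested CpGs. Of 1932 tiles with a mean of at most 20% in skin, 1837 were also at most 20% in sarcoid, 95 lay between 20% and 80%, and none (0) reached 80%. Of these 1932, 20 (1.04%) were called higher on summed reads, against 2.28% of all tiles, and 1 lower. A tile of this class has no room to be 25 points lower on its mean over CpGs. Of 2497 tiles between 20% and 80% in skin, 195 were at most 20% in sarcoid and 165 at 80% or above. Of these 2497, 189 (7.57%) were called lower and 93 (3.72%) higher, against 4.11% and 2.28% of all tiles. The shares of all tiles cover every level, also tiles near 0% that have no room to be called lower. No share at like level was computed over the genome, so these shares do not set shore-like tiles apart. The skin classes were also cut on reads that entered the call. Of 917 tiles at 80% or above, 643 remained so, 273 lay between and 1 was at most 20%, and 38 of the 917 (4.14%) were called lower, near the 4.11% of all tiles. That tile lies on chromosome 25 and is described below.

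**Figure D3:**
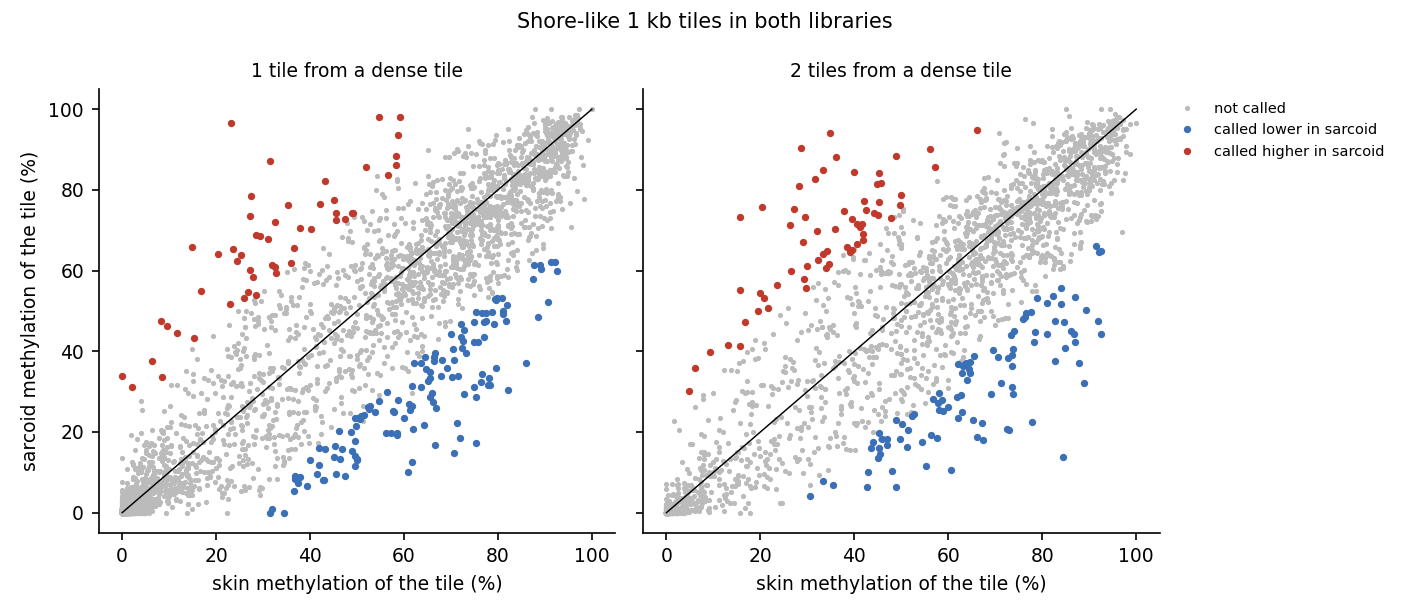
Methylation of each shore-like 1 kb tile in sarcoid (vertical axis, percent) against skin (horizontal axis, percent), for tiles 1 and 2 away from a dense tile, with called tiles in colour and the line of equality. Called tiles number 131 lower and 51 higher in the first panel and 97 lower and 62 higher in the second.

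The called tiles that differed most are described next, 5 in each direction. Their q-values are from summed reads and are too small where reads cover several CpGs. With reads divided by the estimated CpGs per read, 9 of the 10 stayed called, though that estimate can be too small. By Fisher's exact test, q was then 0.000277 for the rise on chromosome 13 and 0.000355 for the fall on chromosome 12. The largest rise was on chromosome 13 from 4738001 to 4739000, directly beside a dense tile, where methylation went from 23.1% (Wilson 95% interval 16.5 to 31.4) in skin to 96.6% (88.3 to 99.0) in sarcoid over 5 CpGs (q = 1.00e-20, Fisher's exact test). At its single CpGs, 269 to 330 bases from the dense tile, skin had 28.9%, 15.8%, 21.1%, 21.1% and 21.1%, and sarcoid 100%, 90%, 100%, 100% and 90%. Every CpG was higher in the sarcoid, and 4 of the 5 were called singly. At 4 of them only 19 reads of skin and 10 of sarcoid were counted, all on the minus strand, so these 4 values can come from the same reads. The dense tile next to it went the other way, from 43.4% to 30.6%, and was not called (q = 0.00460), since its difference of -12.8 points was under 25.

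The other rises started from 15.6% to 34.8% in skin. On chromosome 28 from 35282001 to 35283000, 2 tiles from a dense tile, the level rose from 28.6% to 90.5% over 3 CpGs (q = 1.78e-16). There 56 reads in skin and 21 in sarcoid covered each CpG, all on the plus strand. These 3 values can come from the same reads. On chromosome 12 from 24994001 to 24995000 the level rose from 34.8% to 94.2% over 5 CpGs (q = 2.95e-38), at 1003 to 1045 bases from a dense tile that had 0.759% and 0.777%. Reads came from both strands, and at its first CpG the plus strand had 38.1% in skin and 94.7% in sarcoid and the minus strand 30.4% and 93.8%. On chromosome 8 from 5721001 to 5722000 the level rose from 15.6% to 73.3% over 3 CpGs, with only 15 reads in skin and 10 in sarcoid at each. That tile had q = 7.59e-06, and q = 0.0143 with reads divided by the estimated CpGs per read, both by Fisher's exact test. On chromosome 22 from 35255001 to 35256000, directly beside a dense tile at 0.0369% in skin and 0.165% in sarcoid, 6 CpGs rose together from 31.4% to 87.2% (q = 3.67e-27). In 3 of these 5 tiles the dense tile was below 1% methylated in both libraries while its neighbour rose.

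The largest fall was on chromosome 25 from 36071001 to 36072000, 2 tiles from a dense tile, where methylation fell from 84.3% (77.7 to 89.2) to 13.7% (8.596 to 21.1) over 3 CpGs (q = 9.89e-31). Its CpGs had 78.2%, 91.8% and 83.7% in skin and 14.6%, 13.2% and 13.2% in sarcoid, each with 38 reads or more per library. The dense tile stood at 78.8% and 77.5%. A fall from 75.4% to 17.2% over 4 CpGs was found on chromosome 15 at 52176001 to 52177000 (q = 2.56e-25), and there the dense tile alongside was also called, at 65.7% in skin and 27.4% in sarcoid. On chromosome 21 from 1628001 to 1629000, 4 CpGs fell together from 89.0% to 32.0% (q = 6.17e-21), beside a dense tile at 77.3% and 74.4%. Beside the falls on chromosomes 25 and 21 the dense tile thus stayed within its intermediate class in both libraries.

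A further fall began right at the border of its dense tile. On chromosome 12 from 9290001 to 9291000, 10 of 10 CpGs at 9 to 99 bases were lower, and the tile fell from 70.6% to 14.8% (q = 2.72e-30). The first 5 of these CpGs had 65% to 81.0% in skin and 0% in sarcoid, over 20 or 21 reads in skin and 12 in sarcoid. All of these reads were on the minus strand, so the 5 values can come from the same reads. At the next CpG sarcoid had 27.8% on the plus strand and 0% on the minus strand. The dense tile had 58.1% and 57.1%. On chromosome 7 from 2398001 to 2399000, 3 CpGs fell from 77.8% to 22.4% (q = 1.29e-07), and its dense tile, 2 tiles away, was called as well, at 80.7% and 45.4%. None of those 3 CpGs was called singly (0 calls), with 15 reads each in skin. Chromosomes of deeper sarcoid coverage held 7 of the 10 tiles named here. Genes and sequences at these positions are not given, as no genome of the files' build was used here.

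**Figure D4:**
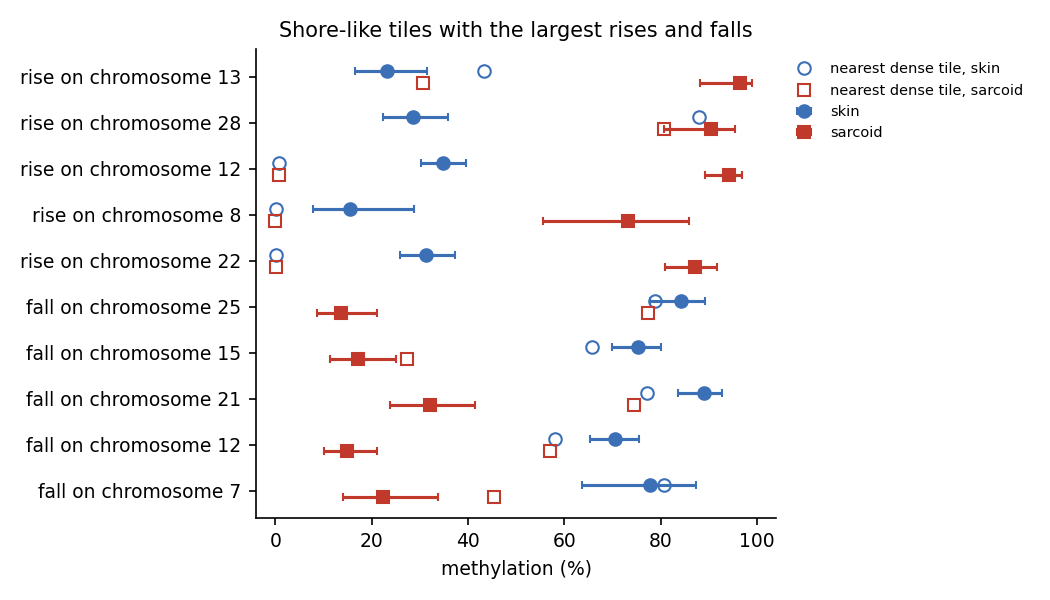
Methylation (horizontal axis, percent) of the 5 shore-like tiles that rose most and the 5 that fell most, with Wilson 95% intervals from summed reads. Circles are skin, squares are sarcoid, and open symbols are the nearest dense tile. In the tiles that rose on chromosomes 12, 8 and 22 the dense tile is near 0% in both libraries.

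The difference in shore-like tiles went with that of the dense tile, more clearly where the dense tile was lower than where it was higher. Where the mean of the dense tile was at least 20 points lower in sarcoid (152 dense tiles), shore-like CpGs differed by -10.1 points in the first tile (interval -10.9 to -9.31) and -6.14 in the second (-7.04 to -5.24). Where it was within 5 points (3743 dense tiles) they differed by -0.766 and -1.72 points. Where it was at least 20 points higher (97 dense tiles), they differed by 2.35 points in the first tile (1.33 to 3.36) and -0.708 in the second (-1.87 to 0.450). Shores were thus lower beside dense tiles that were lower, in both tiles, while beside dense tiles that were higher the second tile did not differ beyond its counting interval. The classes also differed in their level in skin. Beside dense tiles within 5 points, 60.93% of first-tile CpGs were at most 20% methylated in skin. Beside dense tiles at least 20 points lower, this share was 15.02%. A CpG of low methylation has little room to be lower, and these classes were not compared at like level. Without the chromosomes of deeper sarcoid coverage the values for both tiles together were -8.96 points where the dense tile was at least 20 lower and 3.29 where it was at least 20 higher, against -8.31 and 1.13 with them. CpGs over 75 bases from the edge can share no read with the dense tile. Over all chromosomes they differed by -7.50 and -0.701 points, against -1.26 where the dense tile was within 5 points. Without the chromosomes of deeper sarcoid coverage these values were -8.11, 1.48 and -1.03 points.

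**Figure D5:**
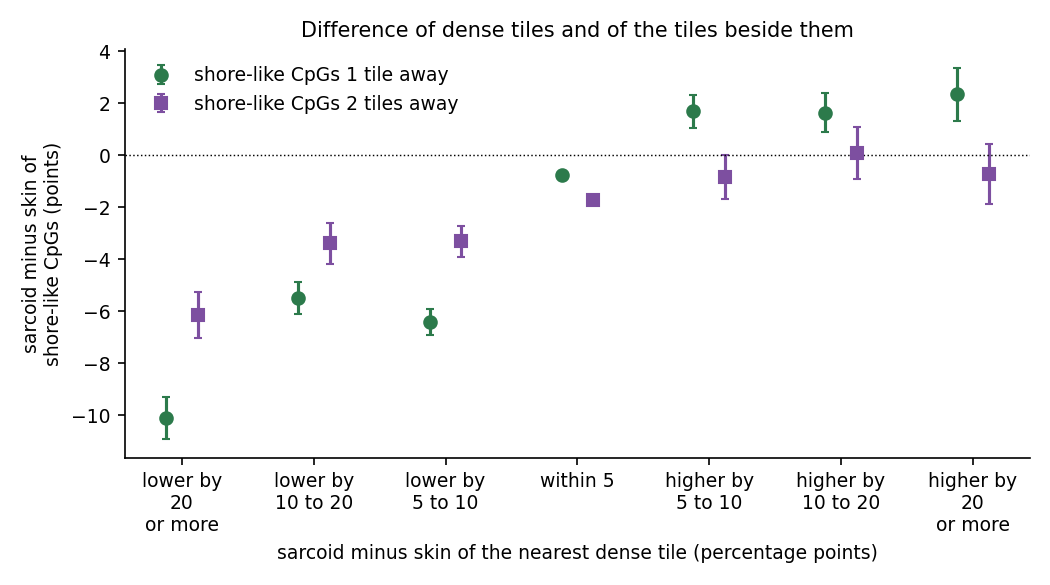
Sarcoid minus skin methylation of shore-like CpGs 1 or 2 tiles away (vertical axis, percentage points, mean with 95% counting interval) by the difference of their dense tile (horizontal axis, points). The first tile goes from -10.1 to 2.35 points between the outer classes, and the second from -6.14 to -0.708.

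By calls, dense tiles called lower (99 with a tested shore-like tile as neighbour) had 153 shore-like tiles beside them, of which 31 (20.3%) were called lower and 2 (1.31%) higher. Beside 44 dense tiles called higher were 56 shore-like tiles, 8 of them (14.3%) called higher and 6 (10.7%) lower. Beside dense tiles that were not called, 3.74% of 5109 shore-like tiles were called lower and 1.996% higher. These shares were not compared at like level of the shore-like tiles either. Seen from the shore, 31 of 228 tiles called lower (13.6%) and 8 of 112 called higher (7.14%) with a tested dense tile had it called the same way. The dense tile was not called beside 191 of the 228 (83.8%) and 102 of the 112 (91.1%), against 4816 of 4978 (96.7%) beside shore-like tiles that were not called.

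The dense tiles with the largest differences and a tested shore-like neighbour showed both patterns. On chromosome 1 the dense tile from 83552001 to 83553000 rose from 12.6% to 75.2%. The shore-like tile before it stood at 92.9% and 94.6%, the one 2 before it fell from 92.0% to 47.5%, and the one after it had 71.8% and 55.0%. That last tile had a mean over its 6 CpGs of 58.5% in skin and 61.4% in sarcoid, so its read sums and its CpGs differed in sign. On chromosome 5 the dense tile from 58150001 to 58151000 rose from 6.39% to 55.8%, and the tile after it had 44.0% and 58.3%, with 8 of 10 CpGs higher. On chromosome 18 the dense tile from 12185001 to 12186000 rose from 17.2% to 63.4%, while the tile 2 before it had 16.8% and 1.07%. The tile after it had 0% over 172 reads in skin and 112 in sarcoid, summed over 4 CpGs. Each of these CpGs had 43 reads in skin and 28 in sarcoid, all on the minus strand. They can be the same reads, so a bound from the summed reads would be too low.

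On chromosome 6 the dense tile from 26570001 to 26571000 fell from 70.8% to 13.8%. The tile before it had 82.2% and 95.1%, and the tile 2 after it fell from 91.5% to 66.1%. On chromosome 21 the dense tile from 17730001 to 17731000 fell from 72.1% to 23.1%. The shore-like tile after it held 0% in both libraries over 142 and 316 reads summed over 6 CpGs. Single CpGs there had 19 to 27 reads in skin and 52 or 53 in sarcoid. These can be the same reads, so a bound from the summed reads would be too low. The last dense tile, on chromosome 10 from 17027001 to 17028000, had 75.6% in skin and 27.8% in sarcoid on summed reads. Its 8 CpGs had a mean of 49.7% in skin and 49.1% in sarcoid, with 3 lower and 5 higher and none called (0 calls), so its call does not hold for the mean over CpGs. Its shore-like tiles had 94.4% and 88.2% before it and 24.3% and 23.8% 2 after it, neither of them called.

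CpGs read on both strands with 10 reads each in both libraries were 25.7% of the shore-like ones. Among these 8235, a gap of 30 points or more between strands was found at 13.7% in skin and at 13.4% in sarcoid. Over all CpGs these shares were 13.2% and 13.3%, and in far sparse tiles 25.2% and 24.96%. The difference was -2.01 points where strands were apart in either library (1326 CpGs) and -1.29 where they were not (6909 CpGs).

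The authors' deposited table covered chromosome 1 and listed 1869 shore-like CpGs, all of those tested there. By the values of the authors' deposited table, 25 of them passed the same limits of q and of points, 18 lower and 7 higher in sarcoid. This was 1.34% of the shore-like CpGs, where 1.44% of all CpGs in the authors' deposited table passed. With q adjusted here over the genome 25 were called as well, 23 of them in both sets, which rest on the same reads.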

How the data were processed

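The deposited files give, for each CpG cytosine and strand, the count of reads covering it (the coverage) and the percent of them read as methylated, for 1 skin and 1 sarcoid library of horse 1. RRBS with single-end reads of 75 bases was used, per the labels' protocols. Tools were BSMAP, FastQC and methylKit per the submitters' processing notes, and the genome build is not given in the sources used here. Cytosines of low coverage are mostly not listed in the deposited files, so low-coverage CpGs are not analysed here. A p-value and q-value per CpG of chromosome 1 come from the authors' deposited table.

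The libraries listed 1203704 CpGs in skin (48650606 reads summed over CpGs) and 1147734 in sarcoid (35970547). From these, methylated reads were computed as coverage times percent, rounded, and the strands of each CpG were merged. CpGs with 10 or more reads in both libraries on chromosomes 1 to 31 were kept, without those over 574 reads in skin or 403 in sarcoid, the 0.1% of the most coverage. Means are over CpGs, each counted once. Distance is counted in tiles of 1 kb, and far tiles were weighted to the listed CpGs per tile of the shore-like ones. Single CpGs, and tiles with at least 3 tested CpGs, were compared with two-sided Fisher's exact tests adjusted by Benjamini and Hochberg over the genome, and called at q below 0.01 with at least 25 points. These tests compare the 2 libraries, not the conditions. The 95% intervals cover counting of reads only (Wilson for a share, normal for a difference of means), and since reads carry no molecular identifiers they are not independent molecules. The called shore-like tiles that rose most (5) and fell most (5) were named, and the 3 called dense tiles of each direction with a tested shore-like tile as neighbour.

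Shore-like tiles, lists and alternatives were chosen with earlier results of these data known. The test was checked on simulated data. Alternatives were 20 reads, both strands, dense tiles over 30 listed CpGs, a moved tile grid and CpGs of the most coverage kept. Others left out chromosomes of deeper sarcoid coverage, thinned reads to 10, took far tiles beyond 50, or divided reads by estimated CpGs per read. Tests used SciPy 1.17.1 and numba 0.67.0 under Python 3.11.15, tables pandas 2.3.3 with NumPy 2.4.6, and plots matplotlib 3.10.9.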

Additional observations from a re-analysis of the deposited data

How the results depend on the processing

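No paired analysis was possible because each tissue has 1 library, so there is no spread between animals and no replicate to leave out. Calls are limited by depth, since a CpG with 10 reads in each library can be called only for a difference near the whole scale. The mean difference was below 0, and it was smallest in size beside dense tiles of at most 20%, under each alternative that recomputed it. Those on far tiles and on reads divided by CpGs leave these values as they are. Keeping the CpGs of the most coverage moved no value beyond its counting interval. The cause of the shifts below was not tested, beside the fewer CpGs that most alternatives keep. Of the 10 named tiles, 4 had no value with 20 reads, 9 none with both strands and 7 none without the chromosomes of deeper sarcoid coverage.

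With 20 reads in both libraries the skin level was 38.8%, the step from the first to the second tile 16.7 points, the gap to far tiles -18.4 points in skin and -0.131 for the difference, the differences beside dense tiles of 20% to 80% and over 80% were -2.73 and -3.55 points, and 223 tiles (6.14%, with 6.20% of all tiles) were called. With 10 reads on both strands the mean difference was -1.41 points, the skin level 39.2%, the step 14.9 and the gap in skin -18.1 points. There the differences by class of dense tile were -0.854, -2.23 and -3.35 points, with 466 CpGs and 91 tiles called. That is 5.66% of the shore-like CpGs and 6.54% of the tiles, where 4.42% of all CpGs and 5.02% of all tiles were called.

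With dense tiles of over 30 listed CpGs the skin level was 36.4%, the step 20.97 and the gap -21.9 points, the differences by class -0.730, -3.83 and -3.77 points, and 332 CpGs (2.70%, with 2.84% of all) and 112 tiles (5.53%, with 6.39% of all) were called. With the grid moved by 500 bases the skin level was 41.0%, the step 18.1, the gap -18.3 and the difference beside dense tiles over 80% -3.68 points. Without the chromosomes of deeper sarcoid coverage the mean difference was -1.20 points, the skin level 38.8%, the step 17.1, the gap in skin -20.2 and that of the difference -0.0770 points. By class the differences were -0.351, -2.70 and -2.13 points there, and 453 CpGs (2.29%, with 2.04% of all) and 189 tiles (5.67%, with 5.78% of all) were called.

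Thinned to 10 reads, Fisher's exact test called 0 shore-like CpGs and 0 in the genome, with 972 shore-like CpGs at an unadjusted p below 0.05, and 151 tiles (2.82%, with 3.001% of all) were called. Against far tiles beyond 50 the gaps were -17.6 points in skin and -0.545 for the difference. With reads divided by the estimated CpGs per read 167 tiles (3.12%, with 3.49% of all) were called, and the rise on chromosome 8 was lost. With CpGs classed by their level in sarcoid in place of skin, the difference was -2.68 points at 0% to 20% (0.381 from skin), -9.34 at 20% to 40% (2.21), -4.995 at 40% to 60% (-2.24), 1.10 at 60% to 80% (-5.53) and 4.37 at 80% to 100% (-3.82).

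A pair of alternatives was chosen after seeing the data. With far CpGs weighted by chromosome and density the gap of the difference was -0.156 points. With CpGs over 75 bases from the dense tile the mean difference was -1.78 points, the skin level 44.8%, the step 12.1, the gap -14.2 in skin and -0.413 for the difference, and the difference beside dense tiles of at most 20% was -0.739 points.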
